A study of Mus musculus with 48 samples.

Results

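The genes of hemoglobin, of the red cell membrane and of the first step of heme synthesis were followed through liver, isolated hepatocytes, cultured spheroids, engrafted spheroids and iris. They were 10 of the 46517 mouse genes in the count tables. The 4 adult globin genes are Hbb-bs, Hbb-bt, Hba-a1 and Hba-a2, and the other members are Alas1, Alas2, Slc4a1, Car1, Car2 and Art4. The members were chosen by name with their levels in these groups already known. Their levels and the changes between groups are therefore given as a description, without a test, and no threshold set them apart from other genes.

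RNA was sequenced from 3 livers, 3 preparations of hepatocytes isolated from donor livers, 2 samples of spheroids kept in vitro, 5 explants and 3 irises without grafts, each as 3 technical libraries. All 16 samples are labelled C57BL/6N and WT Albino, while the methods of the study name another albino B6 strain and adult mice of both sexes. Hepatocyte preparations came from livers that were perfused until cleared of blood, digested with collagenase and enriched. Spheroids were made from hepatocytes isolated in this way, and the labels do not tie them to the preparations sequenced. Each explant was taken 2 months post-transplant from the anterior chamber of the eye and held the engrafted spheroids with the iris around them. The labels do not say which samples share an animal, so the spread between samples may be partly technical.

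The total count was 3523171 to 3871404 per liver, 2718518 to 3573075 per hepatocyte preparation, 3247327 to 3447643 per spheroid sample, 5449589 to 6789648 per explant and 4596550 to 4881817 per iris. Levels are given as TPM (counts divided by gene length and scaled to the same sum in every sample), so genes can be set side by side. All 10 hepatocyte markers (Alb, Apoa1, Ttr, Serpina1c, Hnf4a, Asgr1, Cps1, Tdo2, F2 and Ahsg) had a mean of 1 TPM or more in every group. Their summed level was 14260 to 15420 TPM in livers, 14920 to 17830 TPM in hepatocyte preparations and 15210 to 16410 TPM in spheroids. It was 5922 to 8359 TPM in explants and 1559 to 1860 TPM in irises, which carry no liver label. In bulk RNA of this kind, fewer cells of a type and less RNA per cell cannot be told apart.

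Hemoglobin carries oxygen in red cells as pairs of alpha and beta globin chains around heme. Heme synthesis starts with 5-aminolevulinate synthase, which exists as ALAS1, made in most cells and strongly in hepatocytes for the cytochromes P450, and as ALAS2, known as the erythroid enzyme. Red cells also carry the carbonic anhydrases CA1 and CA2, the anion exchanger band 3 (Slc4a1) and the Dombrock blood group protein (Art4). The comparison asked whether Alas2 and Car1 ran with the globins, as genes of blood would, or with the hepatocytes.

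The promoters of Alas2, Alas1, Hbb-bs and Hba-a1 are shown because Alas2 differed in pattern from Alas1, of the same pathway, and from the globins, of red cells. They are the 250 bases before the transcription start in RefSeq, build GRCm38.p6, written on the strand of the gene. Capitals mark 3 motifs or their reverse complements. The first, AGATAA, is bound by GATA transcription factors of red cell precursors. The second, CACCC, is a core motif of the KLF family of transcription factors. The third, CCAAT, is the box found in many promoters and bound by factor NF-Y.
Alas2, chrX:150547167-150547416, plus strand: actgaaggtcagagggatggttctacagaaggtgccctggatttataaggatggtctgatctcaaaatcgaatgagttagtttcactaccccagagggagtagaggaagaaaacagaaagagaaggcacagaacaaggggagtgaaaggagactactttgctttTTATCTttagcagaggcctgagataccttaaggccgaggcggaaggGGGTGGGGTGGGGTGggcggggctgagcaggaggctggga
Alas1, chr9:106247955-106248204, minus strand: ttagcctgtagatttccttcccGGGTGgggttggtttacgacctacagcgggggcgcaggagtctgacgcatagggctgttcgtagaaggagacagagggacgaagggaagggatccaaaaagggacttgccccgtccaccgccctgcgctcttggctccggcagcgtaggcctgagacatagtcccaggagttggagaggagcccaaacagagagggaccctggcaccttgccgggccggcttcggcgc
Hbb-bs, chr7:103827929-103828178, minus strand: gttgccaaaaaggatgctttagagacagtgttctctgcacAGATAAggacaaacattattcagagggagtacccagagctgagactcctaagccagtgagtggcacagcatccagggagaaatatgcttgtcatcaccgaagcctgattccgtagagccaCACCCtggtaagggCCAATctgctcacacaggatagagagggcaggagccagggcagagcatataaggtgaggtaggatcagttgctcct
Hba-a1, chr11:32283422-32283671, plus strand: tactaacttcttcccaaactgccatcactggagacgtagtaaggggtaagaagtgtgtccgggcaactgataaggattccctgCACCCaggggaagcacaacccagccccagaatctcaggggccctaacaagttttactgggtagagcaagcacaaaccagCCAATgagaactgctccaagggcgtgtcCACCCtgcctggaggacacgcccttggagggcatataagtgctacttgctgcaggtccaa

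The Alas2 window held 1 GATA motif, 86 bases before the start and on the opposite strand, and 3 KLF motifs in a run on the opposite strand. The Hbb-bs window held 1 of each motif, and the Hba-a1 window held 2 KLF motifs and 1 box for NF-Y. For GATA only the exact letters AGATAA were searched, so related stretches, such as tgataa in the Hba-a1 window, are not marked or counted. Alas1 has 2 starts in RefSeq, of which the upstream one is shown, and its window held 1 KLF motif. Among 32851 promoters of the same length, 9.99% held the GATA motif on either strand, 52.0% the KLF motif and 33.8% the box for NF-Y, so the GATA motif was the least common. A match in these letters is a description and was not tested as a binding site.

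The globins stood high in liver and iris and low in isolated hepatocytes and spheroids. Hbb-bs, an adult beta globin, was at 247, 291 and 206 TPM in the 3 livers. It was at 34.1, 17.5 and 17.7 TPM in the hepatocyte preparations and at 10.6 and 6.53 TPM in the spheroids. The irises had 117, 75.9 and 125 TPM, and the 5 explants lay between 69.0 and 93.8 TPM with a median of 90.3 TPM. Livers exceeded every other group without overlap, whereas explants and irises overlapped.

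By their means, the other globins had the same order of groups. Hbb-bt, the other adult beta globin, was at 128, 156 and 112 TPM in livers and at 12.9, 6.78 and 11.5 TPM in hepatocyte preparations. Its level was 5.41 and 2.29 TPM in the spheroids, 20.8 to 49.96 TPM in explants and 30.1 to 58.9 TPM in irises. The alpha globin Hba-a1 ran from 30.04 to 43.3 TPM in livers, 1.11 to 9.49 TPM in hepatocyte preparations and 0.936 to 0.991 TPM in spheroids, which is 1 count in each. Hba-a2 was at 29.7 to 53.8 TPM in livers, at 1 count or fewer in each hepatocyte preparation and at 0 counts in both spheroid samples. Explants held 9.01 to 13.5 TPM of Hba-a1 and 6.58 to 14.3 TPM of Hba-a2.

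Summed over the 4 genes, the globins were at 461 ± 83.0 TPM in livers (SD, n = 3) and at 38.8 ± 16.4 TPM in hepatocyte preparations (SD, n = 3), or 8.41% of the liver mean. Spheroids were at 9.81 and 16.9 TPM, or 2.90% of the liver mean. Explants at 138 ± 27.5 TPM (SD, n = 5) and irises at 180 ± 43.8 TPM (SD, n = 3) reached 29.8% and 38.9%. The globins are near-copies of each other, and reads that map to several places were not counted. Of all stretches of 50 bases in the reference transcript, 65.8% of Hbb-bs also occur in Hbb-bt and 86.9% of Hba-a2 also occur in Hba-a1. Levels of single globins and of their sum are therefore understated, and ratios to the sum are overstated. The split between near-copies is also uncertain, so the order of groups is better read from the sum.

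Slc4a1, the band 3 anion exchanger of the red cell membrane, was barely counted. Livers had 4 to 11 counts, hepatocyte preparations 1 to 3 counts, irises 0 to 3 counts and spheroids 0 counts. Explant 6 had 7 counts, or 0.684 TPM, against 0 to 0.111 TPM in the other 4 explants. Livers lay above irises and spheroids without overlap and overlapped hepatocyte preparations and explants, all at counts too low for the filter.

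**Figure D1:**
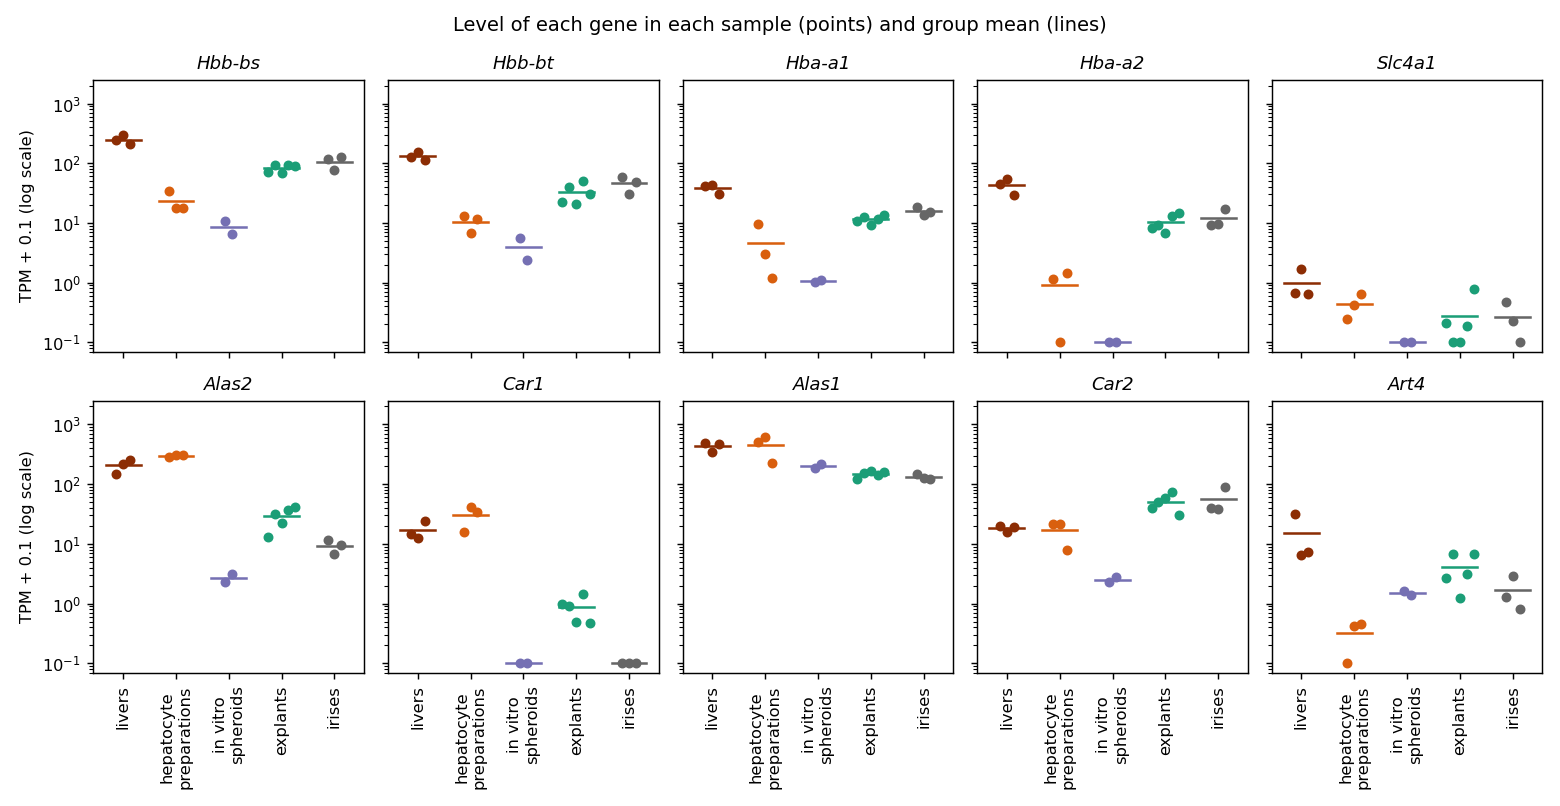
Level of each of the 10 genes in TPM plus 0.1 (vertical axis, log scale) in each of the 16 samples (points), with the group mean as a line. The globins fall from livers to hepatocyte preparations, while Alas2 and Car1 have means at or above the liver mean there, and in spheroids Car1 has 0 counts and Alas2 2.21 and 3.01 TPM.

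Alas2 did not follow the globins into the hepatocyte preparations. It was at 150, 220 and 249 TPM in the 3 livers and at 284, 314 and 305 TPM in the 3 hepatocyte preparations, all of which exceeded all livers. The mean of the preparations was 146% of the liver mean, where the summed globins were at 8.41%. In the spheroids Alas2 was at 2.21 and 3.01 TPM, from 7 and 9 counts. Irises held 11.7, 6.68 and 9.34 TPM, and explants 1, 2, 4, 5 and 6 held 12.9, 31.5, 22.3, 37.3 and 42.2 TPM. No group overlapped another, and the order ran from hepatocyte preparations through livers, explants and irises to spheroids.

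Mean TPM of Alas2 was 115-fold higher in hepatocyte preparations than in spheroids, and explants were 11.2-fold above spheroids and 3.16-fold above irises. On the scale of the fits across all genes, with TMM scaling, the log2 fold change of Alas2 was 0.68 ± 0.20 (SE) for hepatocyte preparations against livers. It was -7.16 ± 0.28 (SE) for spheroids against preparations, 2.92 ± 0.63 (SE) for explants against spheroids and 1.78 ± 0.42 (SE) for explants against irises.

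Relative to the globins in the same sample, Alas2 stood at 0.324 to 0.659 TPM per TPM of summed globins in livers and at 4.94 to 11.5 in hepatocyte preparations. The ratio was 0.131 to 0.307 in spheroids, 0.115 to 0.284 in explants and 0.0452 to 0.0578 in irises. Relative to Hnf4a, a transcription factor of hepatocytes, Alas2 stood at 0.640 to 1.07 in livers, 1.28 to 1.92 in hepatocyte preparations and 0.616 to 1.32 in explants. Spheroids were far below, at 0.00965 to 0.0148, although their Hnf4a, at 203 and 229 TPM, overlapped the 211 to 234 TPM of livers. The ratio to Hnf4a therefore overlapped between explants and livers and lay below both in spheroids. It was 4.37 to 6.75 in irises, where Hnf4a was only 1.46 to 2.14 TPM. No iris level was subtracted from the explant ratio. The iris mean was 9.25 TPM for Alas2 and 1.78 TPM for Hnf4a, beside 12.9 to 42.2 TPM of Alas2 in explants. How far the overlap of explants with livers rests on iris RNA was not tested.

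Because explants contain iris, the whole iris mean was subtracted and the rest, the excess over iris, set against the liver mean. The study instead scaled the iris mean by an estimated iris share of the explant and divided by the remaining share. Where iris is only part of an explant, the whole mean takes off too much, most for genes high in iris. For Alas2 this excess was 1.78% to 15.97% of liver over the 5 explants, with a median of 10.8%. For Hnf4a it was 8.497% to 23.99%, with a median of 11.7%. Over the 10 hepatocyte markers the median gene had a median excess of 27.1%. In spheroids Alas2 was at 1.27% of liver, whereas the median hepatocyte marker was at 94.9%. In irises Alas2 was at 4.49% of liver, and the median hepatocyte marker at 4.14%. The markers there ranged from 0.788% for Hnf4a to 25.2% for Alb, and the source of these levels was not tested.

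Part of the Alas2 exons overlaps another gene. Alas2 (ENSMUSG00000025270, chrX:150547375-150570638 in GRCm38, plus strand) shares 311 bases, or 12.9% of its exon length, with Apex2 on the minus strand, and the counting took no account of strand. Reads of the shared bases count for both genes. Apex2, a DNA repair nuclease, had 75 to 115 counts in spheroids, where Alas2 had 7 and 9, and 137 to 182 counts in hepatocyte preparations, where Alas2 had 815 to 976. In irises Apex2 had 90 to 100 counts and Alas2 25 to 47 counts, and the part of shared reads in the Alas2 level of the iris was not tested. The microRNA gene Mir3620, also on the minus strand, shares 61 bases with Alas2.

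Car1, a carbonic anhydrase abundant in red cells, was also as high in hepatocyte preparations as in livers. Its 3 livers had 14.5, 12.4 and 24.3 TPM, from 22 to 46 counts, and the 3 hepatocyte preparations had 15.7, 42.02 and 34.6 TPM, from 28 to 66 counts. Livers and preparations overlapped, and the mean of the preparations was 180% of the liver mean. Car1 had 0 counts in both spheroid samples and in all 3 irises. Set against 3 counts per sample, hepatocyte preparations were at least 16.4-fold higher than spheroids, and livers were at least 11.5-fold higher than irises.

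Explants had 1 to 4 counts of Car1 each, or 0.383 to 1.37 TPM. Every explant therefore held at least 1 count where the irises held none, but 3 counts in an explant equal 1.18 TPM, so the level is at the limit of this depth. The excess over iris, 2.24% to 8.04% of liver, was below that of the median hepatocyte marker. Car1 lies at chr3:14766216-14808368 on the minus strand of GRCm38 (ENSMUSG00000027556), and no other gene shares its exons.

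**Figure D2:**
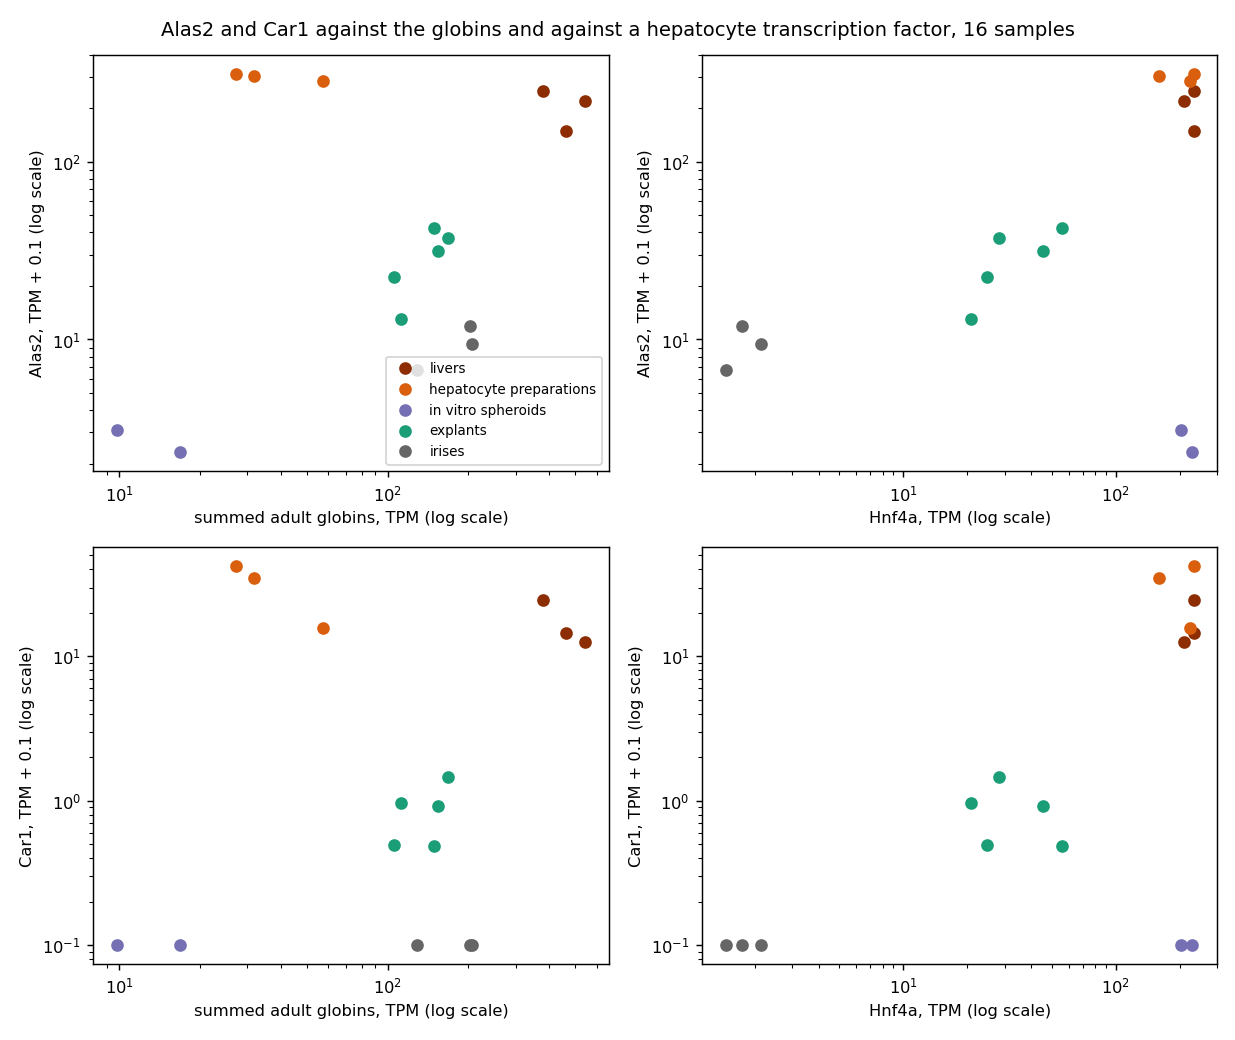
Alas2 (top) and Car1 (bottom), in TPM plus 0.1, against the summed adult globins (left) and against Hnf4a (right) in TPM, all on log scales, for the 16 samples (points, colored by group). Livers and hepatocyte preparations share high Alas2 and Car1 across a wide range of globin levels, and spheroids have Hnf4a at 203 and 229 TPM with Alas2 at 2.21 and 3.01 TPM.

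Likeness was described by Pearson's r of log2(TPM + 1) over the 16 samples. The samples of a group share tissue composition and depth, so r is a description and has no p. Each globin had an r of 0.965 to 0.994 with the sum of the other globins and of -0.312 to -0.243 with the mean of the 10 hepatocyte markers. Alas2 had an r of 0.301 with the globins and 0.544 with the hepatocyte markers, and Car1 had 0.091 and 0.651. Without the spheroids, the r with the hepatocyte markers was 0.916 for Alas2 and 0.842 for Car1, and that with the globins was -0.173 and -0.231. Without the hepatocyte preparations, the r with the globins was 0.828 for Alas2 and 0.654 for Car1, above that with the hepatocyte markers, at 0.409 and 0.568. Without the livers, the r with the globins was -0.014 for Alas2 and -0.343 for Car1, so its size and sign depended on which group was left out.

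**Figure D3:**
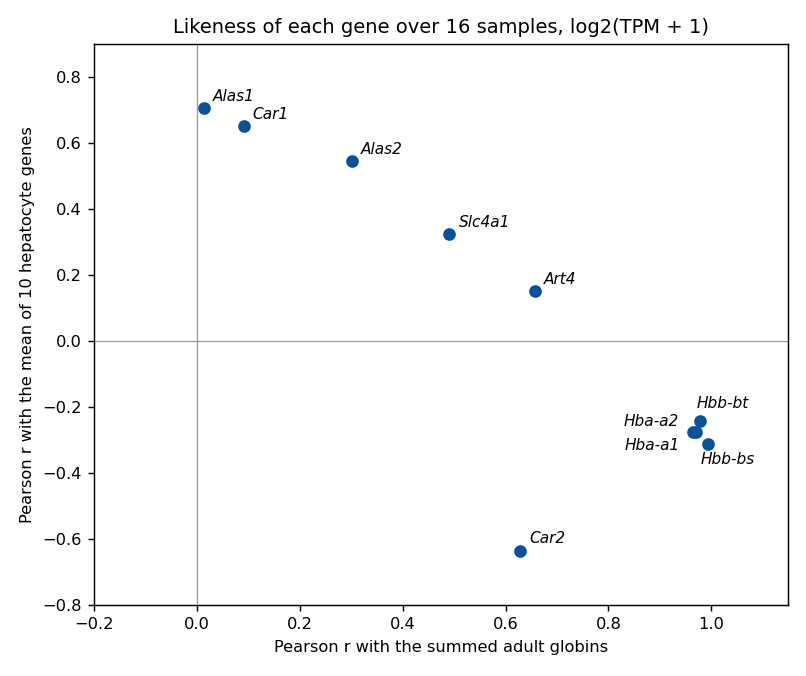
Pearson's r of each of the 10 genes with the summed adult globins (horizontal axis; for a globin, the other 3) and with the mean of 10 hepatocyte genes (vertical axis), over 16 samples of log2(TPM + 1). The globins lie together at 0.965 to 0.994 on the horizontal axis, and Alas1, Car1 and Alas2 lie apart from them at 0.706, 0.651 and 0.544 on the vertical axis.

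The 5 genes most like Alas2 among 19450 genes with a mean of 1 TPM or more were Car3, Bdh1, Cyp2e1, Cyp4f15 and Apol9b, with an r of 0.984 to 0.966. Car3 is a muscle and liver carbonic anhydrase, Bdh1 makes ketone bodies, and Cyp2e1 is a cytochrome P450 of pericentral hepatocytes. Mean Cyp2e1 was 2506 TPM in livers, 2989 TPM in hepatocyte preparations, 144 TPM in spheroids, 658 TPM in explants and 214 TPM in irises. No globin was among these 5. The 5 genes most like Car1 were Adhfe1, Mcm10, Nat8f1, Selp and Hibadh, with an r of 0.979 to 0.968. Mean Mcm10, a gene of DNA replication, was 60.5 TPM in livers, 90.9 TPM in hepatocyte preparations and 1.32 TPM in spheroids.

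Several genes that define red cells and their precursors were at or near 0. Of 20 listed erythroid genes 19 were found, and 5 had a mean of 1 TPM or more in livers and 4 in hepatocyte preparations. Rhag, Kel, Cldn13, Trim10 and Trim58 had 0 counts in all hepatocyte preparations, but also 0 to 3 counts in each liver, so they do not separate the groups. Bpgm and Slc25a37, which many cells make, had means of 24.2 and 12.9 TPM in preparations and 27.9 and 21.2 TPM in livers. The erythroid transcription factor Gata1 had a mean of 0.0902 TPM in livers and 0.109 TPM in hepatocyte preparations. Klf1, another erythroid transcription factor, was different, at 11.3 to 13.3 TPM in livers, 8.79 to 15.02 TPM in hepatocyte preparations and 1.49 and 1.57 TPM in spheroids. Explants, at 0.7097 to 1.95 TPM, and irises, at 0.782 to 2.09 TPM, overlapped for Klf1. Nfe2, a further erythroid transcription factor, was lower in hepatocyte preparations than in livers without overlap, with means of 1.48 and 7.76 TPM. Its means were 1.30 TPM in spheroids, 5.50 TPM in explants and 0.968 TPM in irises, and explants lay above irises without overlap. Epor had means of 1.88 TPM in livers and 0.855 TPM in preparations, also without overlap.

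Hepatocyte preparations were also fitted against livers. Calls come from edgeR's quasi-likelihood test, with p-values adjusted by Benjamini and Hochberg's method below 0.05, for log2 fold changes beyond 1 in either direction. Of 12236 genes tested, 0.409% were called higher and 2.31% lower in the preparations. Among the members, 9 of 10 passed the filter on low counts. The log2 fold change was -3.27 ± 0.27 (SE) for Hbb-bs, -3.51 ± 0.29 (SE) for Hbb-bt and -2.85 ± 0.54 (SE) for Hba-a1, against 0.68 for Alas2, 0.98 ± 0.42 (SE) for Car1 and 0.16 ± 0.31 (SE) for Alas1.

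Markers of other blood cells were measured in the same samples. The summed level of 8 neutrophil markers was 23.4 to 38.05 TPM in livers and 1.56 to 8.61 TPM in preparations, with Camp and Mmp8 at 0 there, and that of 8 platelet markers was 15.8 to 33.6 TPM and 4.38 to 5.28 TPM. The 6 lymphocyte markers had 10.9 to 61.2 TPM in livers and 1.88 to 3.89 TPM in preparations. Their part in the globin levels was not tested. Of the 19 erythroid genes found, 4 were tested and 0 were called by edgeR, with 2 at an unadjusted p under 0.05 and 1 called by DESeq2. The median of the 4 was -0.33, beside 0.01 for all genes tested.

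Of the 9 other globins, only cytoglobin (Cygb), a globin of stellate cells and fibroblasts, passed the filter in this comparison. It was at 75.0 TPM in liver 1, at 18.1 and 17.2 TPM in livers 2 and 3, and at 1.70 to 3.30 TPM in hepatocyte preparations. Cygb was called lower, with a log2 fold change of -3.59 ± 0.68 (SE) and an adjusted p of 0.0386. That call held without liver 1 or without liver 3 but was lost without liver 2 or without any single preparation. Among the other globins, Hbb-y, Hbb-bh2, Hba-x and Hbq1a had 0 counts in all livers, and Hbb-bh1 and Hbq1b had 0 to 3 counts in each.

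Alas1, the ALAS of most tissues, had a pattern of its own. Livers held 496, 349 and 473 TPM, and hepatocyte preparations 507, 613 and 223 TPM, with preparation 3 below all other samples of both groups. Spheroids were at 188 and 218 TPM, explants between 124 and 169 TPM with a median of 156 TPM, and irises at 150, 128 and 123 TPM. Spheroids lay below all livers and all preparations, at 46.2% of the liver mean. Explants and irises overlapped.

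Alas1 exceeded Alas2 in every sample except hepatocyte preparation 3, where Alas1 was at 223 TPM and Alas2 at 305 TPM. The log2 fold change of Alas1 for spheroids against preparations was -1.44 ± 0.40 (SE), beside -7.16 for Alas2. For explants against irises it was 0.27 ± 0.13 (SE), and the excess over iris, with a median of 4.95% of liver, was below that of the median hepatocyte marker. Irises held Alas1 at 30.45% of liver and the median marker at 4.14%. Subtracting the whole iris mean therefore lowers the excess of Alas1 more, and the 2 are not alike in this. Alas1 (ENSMUSG00000032786, chr9:106233455-106248126 in GRCm38, minus strand) shares 114 bases of exon with 4930500F10Rik on the other strand, which had 7 counts at most.

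The 6 later enzymes of heme synthesis given here spanned a narrower range than Alas2. Alad, which joins the products of ALAS, had a mean of 398 TPM in livers, 382 TPM in hepatocyte preparations, 171 TPM in spheroids, 218 TPM in explants and 227 TPM in irises. Urod, a decarboxylase, and Fech, which inserts iron, had means of 203 and 314 TPM in livers and 216 and 289 TPM in spheroids. Cpox, the mitochondrial coproporphyrinogen oxidase, had means of 57.8 TPM in livers, 51.0 TPM in preparations, 15.2 TPM in spheroids, 5.82 TPM in explants and 3.56 TPM in irises. Uros and Ppox were at means of 21.1 and 23.8 TPM in livers and 30.3 and 56.2 TPM in irises.

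Against livers, 1 of the 6 enzymes was called higher in hepatocyte preparations and none lower. It was Uros, which closes the porphyrin ring, with a log2 fold change of 1.18 ± 0.23 (SE) and an adjusted p of 0.0393, and this call was lost without any single liver and without preparation 2 or 3. Spheroids against preparations tested 12247 genes, of which 8.13% were called higher and 9.11% lower, or 996 and 1116 genes. With library size alone as the scaling these were 1531 and 808 genes, and the median of all genes moved from 0.01 to 0.27. Alad fell by 1.49 ± 0.20 on the log2 scale (SE, adjusted p = 0.00206) and Cpox by 2.04 ± 0.56 (SE, adjusted p = 0.0321), while the other 4 enzymes were not called. The median of the 6 was -0.62, beside 0.01 for all genes tested. The Cpox call was lost without preparation 2 or 3 and without spheroid sample 1.

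**Figure D4:**
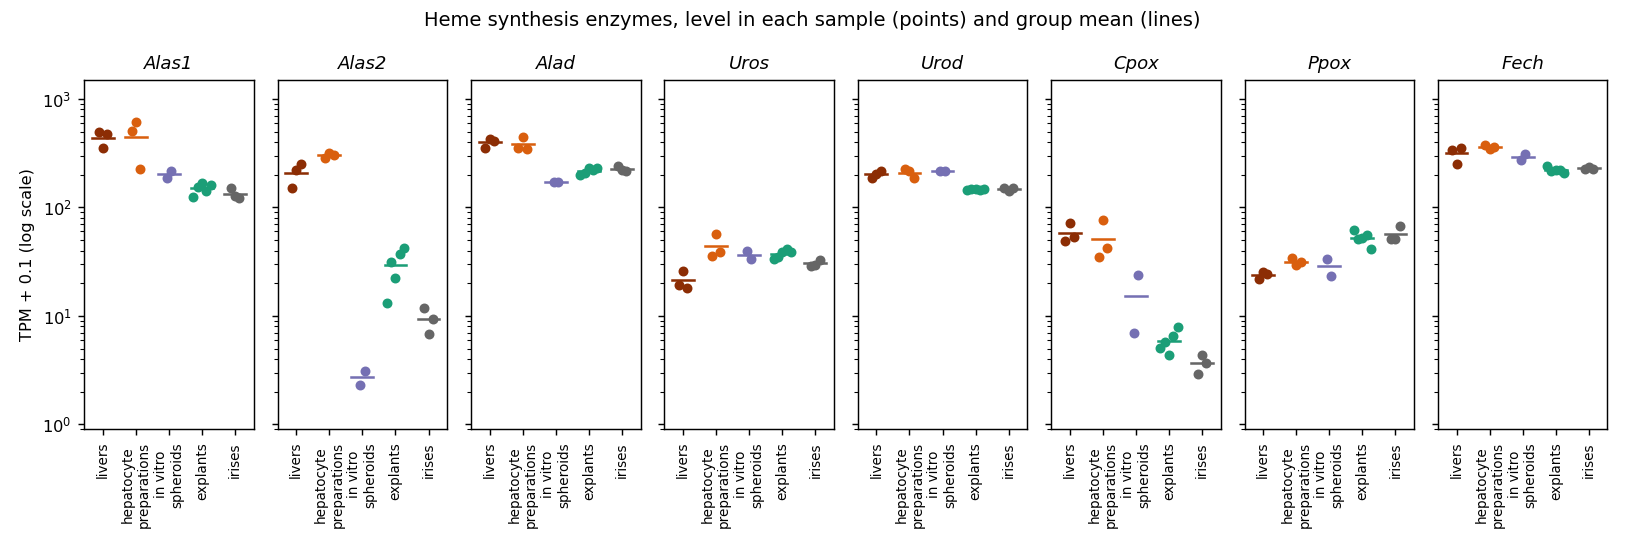
Level in TPM plus 0.1 (vertical axis, log scale) of Alas1, Alas2 and 6 later enzymes of heme synthesis, in each of the 16 samples (points) with group means as lines. Alas2 spans 2.21 to 314 TPM over the samples, and of the later enzymes Cpox spans 2.82 to 76.1 TPM and Alad 171 to 446 TPM.

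Transport, breakdown and control genes of heme were counted in the same fits. Among 13 genes of heme transport, export and breakdown, 12 were tested in spheroids against preparations, and 1 was called higher and 3 lower, with a median of -0.33. Hmox1, the inducible heme oxygenase that breaks heme down, rose by 1.68 ± 0.20 on the log2 scale (SE, adjusted p = 0.00138), from a mean of 24.8 TPM to 99.8 TPM. Flvcr2, a heme and choline carrier, Abcb10, a mitochondrial transporter needed for heme synthesis in red cells, and Blvrb, a biliverdin reductase, were called lower, with log2 fold changes of -2.43, -1.56 and -1.03. The Flvcr2 call rested on a mean of 3.52 TPM in preparations and was lost without either spheroid sample. The Blvrb call was lost without preparation 2, at -0.91, and without spheroid sample 1, at -0.80, and with library size alone as the scaling.

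Of 9 genes known to act on ALAS1, 2 were called lower in spheroids and none higher, with a median of -0.50. Nr1d1, the circadian repressor REV-ERB alpha, fell by 2.71 ± 0.33 on the log2 scale (SE, adjusted p = 0.00149) and Nr1i3, the xenobiotic receptor CAR, by 1.43 ± 0.33 (SE, adjusted p = 0.0187). The Nr1i3 call was lost without spheroid sample 1, at -0.97. Hnf4a, in the same list, was not called, with means of 205 TPM in preparations and 216 TPM in spheroids. Klf1 fell by 3.18 ± 0.53 on the log2 scale (SE, adjusted p = 0.005) and was the only 1 of 3 erythroid genes tested that was called. Among the members, 6 of 10 passed the filter.

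Car2, the second carbonic anhydrase of red cells, which many epithelia also make, went another way than Car1. It was at 20.1, 15.99 and 19.1 TPM in livers, at 21.1, 21.7 and 7.80 TPM in hepatocyte preparations and at 2.20 and 2.66 TPM in spheroids. Irises held 40.4, 38.4 and 88.9 TPM, and explants 30.4 to 74.6 TPM with a median of 49.6 TPM. Iris and explant overlapped, and both exceeded the other groups. Its r was 0.628 with the globins and -0.636 with the hepatocyte markers. The genes most like it, Fyco1, Nrep, P2ry1, Gm15406 and Gm37035, with an r of 0.947 to 0.941, had their highest mean in irises. Car2 lies at chr3:14886273-14900770 on the plus strand, on the same chromosome as Car1.

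Other carbonic anhydrases were counted alongside. In spheroids against preparations, 3 of 6 tested were called lower and none higher, with a median of -1.15. Car3 fell by 5.76 ± 0.33 on the log2 scale (SE, adjusted p = 7.61e-05), from a mean of 1521 TPM to 35.2 TPM, and the mitochondrial Car5a by 4.13 ± 0.40 (SE, adjusted p = 0.000718), from 314 TPM to 22.2 TPM. Car8, a family member without enzyme activity, was called lower by 1.20 ± 0.26 (SE, adjusted p = 0.014), a call lost without spheroid sample 1 and with library size alone as the scaling. None of the 5 tested was called in preparations against livers, where the median was 0.63. The spheroid mean was 3.28% of the liver mean for Car3 and 7.39% for Car5a, and Car1 had 0 counts there.

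Art4, which carries the Dombrock blood group, had its highest mean in livers and was nearly absent from the counts of isolated hepatocytes. Livers held 32.1, 6.43 and 7.34 TPM, and hepatocyte preparations held 0 or 1 count each. Spheroids had 1.51 and 1.28 TPM, from 4 or 5 counts, explants 1.16 to 6.71 TPM with a median of 3.06 TPM, and irises 1.19, 2.80 and 0.723 TPM. Liver 1 stood above all other samples, and liver 2 lay below explants 2 and 6, so that livers and explants overlapped. The log2 fold change for preparations against livers was -5.81 ± 1.04 (SE), and it was -4.72 without liver 1.

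Markers of capsule and fibroblasts were compared with Art4. The summed level of 9 mesothelium and capsule fibroblast markers was 437 to 1308 TPM in livers and 123 to 174 TPM in hepatocyte preparations, and Upk3b was at 0 there. It was 308 to 357 TPM in spheroids, 2052 to 2424 TPM in explants and 2622 to 2925 TPM in irises, where Art4 was low. Dpt, an extracellular matrix gene of that list, was at 139 TPM in liver 1 and at 18.8 and 13.4 TPM in livers 2 and 3. The genes most like Art4 were Adamtsl2, Fam180a, Gdf10, Clec9a and Ighd, with an r of 0.937 to 0.877. Adamtsl2 had a mean of 12.3 TPM in livers and 0.349 TPM in preparations. Whether these cells were the source of Art4 was not tested. Of 4 other ADP-ribosyltransferases, 1 was tested in this comparison and was not called.

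Explants against irises addressed what the graft adds to the iris. Of 16764 genes tested, 6.16% were called higher and 0.316% lower. Of the members 8 of 10 passed the filter, and Car1 and Slc4a1 did not. Alas2 was at 1.78 ± 0.42 (SE), as given above. The globins had log2 fold changes of -0.38 to -0.11 with SE of 0.20 to 0.38, and Car2 had -0.05 ± 0.33 (SE). Art4 had 1.48 ± 0.69 (SE), with overlapping samples. All 10 hepatocyte markers were called higher, with a median of 3.39.

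In the lists, none of the 6 heme synthesis enzymes and none of the 13 transport and breakdown genes was called by edgeR, DESeq2 or limma-voom, with medians of 0.07 and 0.16 beside 0.01 for all genes tested. At an unadjusted p under 0.05 in edgeR there were 2 and 6 of them. Cpox was at a log2 fold change of 0.82 ± 0.29 (SE, adjusted p = 0.104). Of 9 genes acting on ALAS1, 2 were called higher and 0 lower. Hnf4a, which is also 1 of the 10 hepatocyte markers, rose by 4.42 ± 0.49 on the log2 scale (SE, adjusted p = 0.000646). Nr1i2, the xenobiotic receptor PXR, rose by 3.21 ± 0.49 (SE, adjusted p = 0.00346). Among 13 other carbonic anhydrases tested, Car5a rose by 3.60 ± 0.55 (SE, adjusted p = 0.00349), and Car3 was at 0.89 with an adjusted p of 0.0947. None of 6 erythroid genes, 1 other globin, 2 ADP-ribosyltransferases and 8 SLC4 transporters tested was called by edgeR, and DESeq2 called 1 of the erythroid genes. At an unadjusted p under 0.05 in edgeR there were 2 erythroid genes and 2 SLC4 transporters.

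Explants against spheroids compared the engrafted with the cultured state, and also tissue with iris against tissue without it. Of 17059 genes tested, 30.4% were called higher and 15.5% lower, or 5192 and 2642 genes, and the median of all genes was 0.25. With library size alone as the scaling these were 6684 and 1415 genes and the median was 0.68, so changes are best read relative to it. Of the members 8 of 10 passed the filter. Hbb-bs was at 2.70 ± 0.32 (SE), Hbb-bt at 2.50 ± 0.59 (SE), Hba-a1 at 2.93 ± 0.57 (SE), Car2 at 3.79 ± 0.46 (SE) and Alas1 at -1.03 ± 0.17 (SE). Alas2, at 2.92 ± 0.63 (SE), lay within the range of these globins, and for the globins and Car2 explants overlapped irises.

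The lists moved in different directions. Of the 6 heme synthesis enzymes, Urod and Cpox were called lower and none higher, with a median of -0.76. The Urod call was lost with library size alone as the scaling, and the Cpox call, at a log2 fold change of -0.72, without spheroid sample 2. Of 13 genes of transport and breakdown 2 were called higher and 6 lower, among them Flvcr2 at 4.16, Abcb6 at -2.40, Flvcr1 at 1.84 and Slc25a39 at -1.67. Of 9 genes acting on ALAS1 2 were called higher and 6 lower, among them Hnf4a at -3.17, Nr1i2 at -2.87, Nr1d1 at 2.49 and Ppargc1a at 2.20. All 10 hepatocyte markers, Hnf4a among them, were called lower.

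In the other lists, all called genes but 1 carbonic anhydrase were called higher, where 30.4% of all genes tested were. Of the 6 erythroid genes tested, 4 were not called. Of 13 other carbonic anhydrases tested 9 were called higher and 1 lower, among them Car9 and Car4, which had 0 counts in spheroids, Car6 and Car13. Car6 had means of 74.1 TPM in explants, 99.5 TPM in irises and 1.49 TPM in spheroids. Of 6 erythroid genes tested 2 were called higher, the membrane skeleton genes Ank1 and Sptb, and Ank1 had a mean of only 0.306 TPM in explants and 0 counts in spheroids. The Ank1 call was lost without either spheroid sample. Of 8 SLC4 transporters 5 were called higher, among them Slc4a5, Slc4a3, Slc4a8 and Slc4a10, and of 2 ADP-ribosyltransferases both, Art5 and Art3. Cygb was called higher at 3.62 ± 0.17 (SE), with means of 98.6 TPM in explants and 114 TPM in irises. The part of the iris tissue in these changes was not tested.

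**Figure D5:**
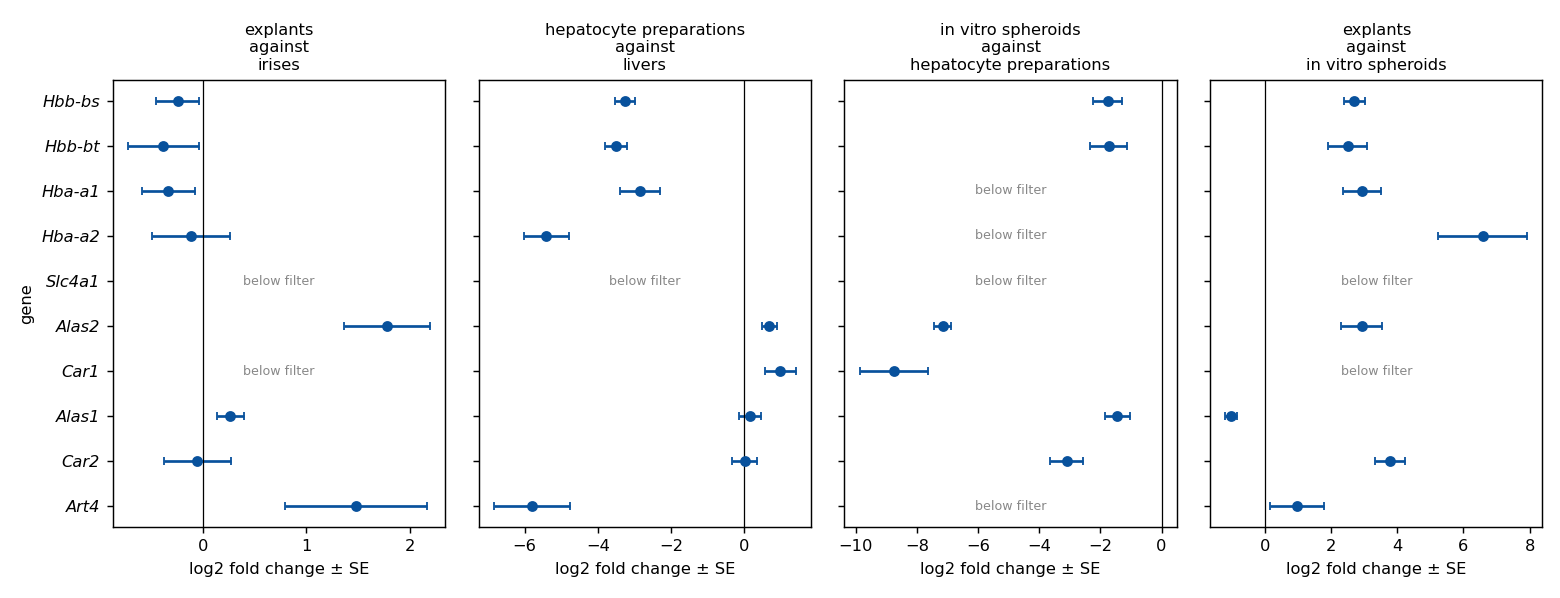
Log2 fold change of each of the 10 genes (horizontal axis, with SE) in the 4 comparisons, from fits across all genes, with "below filter" where a gene was not fitted. Values for Car1 and Hba-a2 against the spheroids, where both had 0 counts, depend on the prior count of the fit and give no bound, and Alas2 is at 0.68 where the globins are at -2.85 or lower.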

How the data were processed

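RNA from 16 samples in 5 groups was sequenced with Smart-seq3, with 3 technical libraries per sample, and groups were taken from the labels. The authors aligned reads with TopHat2 to mm10, removed duplicates, and counted reads over exons with featureCounts 1.4.6-p5 without strand. Reads over several genes were counted in each, and reads mapped to several places were not counted. The deposited counts are raw whole-number counts per gene, summed by the authors over technical libraries. The deposited TPM values were made by the authors from counts and gene lengths, and values they corrected for iris RNA were not used here. The study lists UMI-tool dedup, which uses molecular barcodes. How far removal of duplicates limited high counts was not tested. The most densely counted member, Alas1, reached 0.281 counts per base in a library, and the densest gene of 500 bases or more 1.703.

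The members and gene lists were chosen with earlier results of these data known. Each comparison was fitted to the counts across all genes of its 2 groups with edgeR 4.0.16 (R 4.3.3, quasi-likelihood test, filterByExpr, TMM, Benjamini-Hochberg), and ERCC spike-ins were left out. Calls needed an adjusted p below 0.05 with a log2 fold change beyond 1 in either direction. The p-values measure the spread between samples, which the labels do not tie to separate animals. Some genes of the lists are not reported here and were left out of the lists' counts. Named genes were all members, the heme synthesis enzymes, at most 4 called genes per other list and comparison by size of change, and the 5 genes most like Alas2, Car1, Car2 and Art4. Gata1, Bpgm, Slc25a37, Nfe2, Epor and the erythroid genes at 0 were named after their values were seen. So were the other globins named as at or near 0 in livers, the marker genes given beside results and Car3 in explants against irises. The alternatives were DESeq2 1.42.0, limma-voom 3.58.1, other scalings, filters and fold limits, all 5 groups in a single fit, the replicate block and leaving out each sample. The fits were tested on simulated data. Likeness was Pearson's r of log2(TPM + 1), with leaving out livers, preparations, spheroids or irises chosen after seeing the data.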

Additional observations from a re-analysis of the deposited data

Results flagged for a closer look

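Slc4a1 in explant 6, at 0.684 TPM from 7 counts, lay far from the other 4 explants, which ranged from 0 to 0.111 TPM. Its gap to the nearest explant was 0.837 of the whole range of the group, above Dixon's critical value of 0.71 for 5 samples. This test was run for 17 genes over the explants, and for normally distributed values chance passes about 1 in 20. The 0 to 7 counts of Slc4a1 are not such values, so that rate does not hold for it.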

How the results depend on the processing

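The ratios of group means for Alas2, Car1, Alas1 and the summed globins moved by less than the spread between replicates under every alternative run for them. Leaving out 1 sample at a time gave 1.28 to 1.63 for Alas2 in hepatocyte preparations over livers, 1.47 to 2.29 for Car1 and 0.0638 to 0.0967 for the summed globins. It turned the sign of the log2 fold change of Hba-a2 (-0.34 to 0.25) and Car2 (-0.28 to 0.45) in explants against irises, and of Alas1 (-0.12 to 0.48) and Car2 (-0.18 to 0.35) in preparations against livers.

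Calls in the 8 pathway lists depended more on the setting, and the cause was not tested. In explants against irises 3 genes were called higher and 0 lower by edgeR, against 1 higher with at least 10 counts in every sample, 7 higher and 1 lower without a fold limit, and 3 to 5 higher without 1 sample. In preparations against livers 1 was called higher and 1 lower, against 2 and 2 with DESeq2, 0 and 0 with limma-voom, 3 and 4 without a filter, 3 and 2 with all 5 groups, 0 lower with at least 10 counts, and 0 to 3 higher and 0 to 1 lower without 1 sample. In spheroids against preparations 1 was called higher and 11 lower, against 2 higher without a fold limit and 7 to 12 lower without 1 sample, with 7 without spheroid sample 1. In explants against spheroids 23 were called higher and 15 lower, against 6 and 7 with at least 10 counts, 6 lower with library size alone, and 22 to 23 higher and 9 to 16 lower without 1 sample, with 9 without spheroid sample 2.

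The samples share replicate numbers but are not otherwise tied, and deviations of same-numbered samples correlated at -0.028 to 0.037 for preparations and livers, -0.041 to 0.034 for explants and irises, 0.048 to 0.072 for spheroids and preparations and 0.011 to 0.089 for explants and spheroids. Samples with different numbers correlated at -0.059 to 0.046 for preparations and livers and -0.102 to 0.118 for explants and irises. They correlated at -0.072 to 0.025 for spheroids and preparations and -0.089 to 0.089 for explants and spheroids. With only 2 spheroid samples, the deviations of 1 mirror those of the other. Correlations with spheroids therefore come in opposite pairs and cannot show whether numbers mark pairing. With the replicate block, 1 list gene was called lower in preparations against livers, as without it, and Alad was at -0.117 and Ppox at 0.196 in explants against irises.

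Values near 0 of uncalled enzymes turned sign. In explants against irises Alad was at -0.04 and Fech at -0.036 with library size alone, and without 1 sample Alad ranged from -0.044 to 0.094 and Ppox from -0.109 to 0.135, with Ppox at 0.008 and 0.003 without explant 4 or 6. In preparations against livers Alad was at -0.036 with library size alone and from -0.034 to 0.153 without 1 sample (-0.028 without preparation 2). Cpox was at 0.008 with all 5 groups and from -0.43 to 0.177 without 1 sample, with 0.155 without liver 2 and 0.061 without preparation 3. In explants against spheroids Alad was at 0.208 with library size alone and 0.06 with at least 10 counts, which also put the median of the other carbonic anhydrases at -0.215.

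The r of Alas2 with the globins was 0.159 by ranks, -0.014 without livers, 0.828 without preparations, -0.173 without spheroids and 0.446 without irises. With the hepatocyte markers it was 0.409 without preparations, 0.916 without spheroids and 0.409 without irises. For Car1 the r with the globins was -0.343, 0.654, -0.231 and 0.22 without livers, preparations, spheroids and irises, and that with the hepatocyte markers was 0.578, 0.568, 0.842 and 0.626. Depth limits Car1 in explants, Slc4a1 and the alpha globins in spheroids and preparations, all at a few counts.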
